A study of Homo sapiens with 8 samples.

Results

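The genes described here are 52 protein-coding genes of mitosis, the spindle and the kinetochore, picked by name from a count table of 60708 genes. All 52 had a row in the table and passed the filter on low counts, which left 16008 genes for testing. RNA had been sequenced from HS578T cells, an established line derived from a human breast carcinoma. The 8 libraries form 4 groups of 2, which the series' design text calls biological replicates. HSF2oe cells had received 25 µg of a plasmid encoding exogenous HSF2, a heat shock transcription factor, and Mock cells 25 µg of a plasmid encoding GFP. At 24 h after transfection the cells of each plasmid went into assay medium that contained 10 ng/ml of the cytokine TGF-β1, whose receptors act on SMAD proteins (HSF2oe TGF-β and Mock TGF-β), or into assay medium alone (HSF2oe control and Mock control), for another 24 h. The groups follow the sample titles, because a treatment entry in the labels lists DMSO for all Mock libraries and TGF-β1 for all HSF2oe libraries, against the titles and the design text. One cell line was used, the share of cells that took up a plasmid was not analysed here, and the p-values measure only the spread between these libraries.

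Cells enter mitosis when cyclin B and CDK1 become active, build a bipolar spindle from microtubules and kinesin motors, and attach each chromosome to it through a kinetochore that sits on centromeric chromatin. The spindle checkpoint holds the anaphase-promoting complex (APC/C) until all chromosomes are attached, after which separase cuts cohesin and the cell divides by cytokinesis. Most of these genes are transcribed in G2 and M phase through a shared promoter logic, in which the DREAM complex represses them in resting cells and the MuvB core with B-MYB and FOXM1 activates them in cycling cells. TGF-β is known to slow the cycle of many epithelial cells in G1. In bulk RNA, fewer cells in a phase and less RNA per cell cannot be told apart. HSF2 has been described in mitotic cells as a partner of the condensin subunit NCAPG at heat shock gene promoters.

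The libraries held 17427645 to 34336107 gene counts, so that 3 counts, the limit that a count of 0 allows, stood at 0.0851 to 0.195 CPM, counts per library scaled to a common total; limits of this kind cover counting error only. HSF2 itself stood at 489 to 937 CPM in the 4 HSF2oe libraries, against 5.40 to 8.36 CPM in the 4 Mock libraries. Totals were scaled by TMM, a method that trims genes that differ most between libraries. The 8 mesenchymal markers, with FN1, VIM and SPARC the most abundant, summed to 48829 to 51274 CPM in HSF2oe TGF-β, 33983 to 34375 in HSF2oe control, 64393 to 72915 in Mock TGF-β and 35814 to 42044 in Mock control. FN1 made up most of each sum. Not all markers followed it: TWIST1 stood at 11.6 and 12.3 CPM in Mock TGF-β against 20.3 and 22.2 in Mock control. S100A4 stood at 21.5 and 24.7 CPM against 43.6 and 45.2 in the same groups. Of the epithelial markers EPCAM did not exceed 0.128 CPM and CDH1 did not exceed 1.17 CPM in any library, although the labels name the source as epithelial. KRT18, at 177 to 275 CPM, made up most of the summed level of 10 epithelial markers, 210 to 304 CPM. Of the blood and endothelial markers, CD3E and HBB were at 0 in all libraries. The list of 8 summed to 2.33 to 2.34 CPM in HSF2oe TGF-β, 5.30 to 5.94 in HSF2oe control, 4.04 to 5.41 in Mock TGF-β and 6.58 to 7.19 in Mock control. PECAM1 and CD14 gave most of these low sums, and the part of any marker list in the results was not tested.

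Together the 52 genes took 0.516% and 0.568% of all counts in the HSF2oe TGF-β libraries, 0.751% and 0.792% in HSF2oe control, 0.358% and 0.334% in Mock TGF-β and 0.635% and 0.643% in Mock control. The share was thus lowest in both Mock TGF-β libraries and highest in both HSF2oe control libraries. Per kilobase of exon the genes spanned a wide range of levels. In Mock control cells the checkpoint effector CDC20 averaged 145 RPKM (CPM per kilobase of exon), TPX2, which targets Aurora A to the spindle, 134 RPKM, the cytokinetic scaffold ANLN 93.9 RPKM and the CDK1-activating phosphatase CDC25B 84.7 RPKM. At the low end CENPK, an inner kinetochore protein, averaged 1.91 RPKM. NUSAP1, a microtubule bundling protein, averaged 0.213 RPKM, and its level is uncertain because 81.4% of its exonic bases are shared with another annotated gene. PRC1 shares 61.9% of its exonic bases, with its largest partner on the same strand. NCAPG shares 33.7% (with LCORL, on the other strand) and SMC4 22% (with TRIM59, also on the other strand). Counting without strand can lower or raise the counts of NCAPG and SMC4. KIF4A and PTTG1 have close copies elsewhere in the genome, KIF4B and PTTG2, so their reads can also be split.

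**Figure D1:**
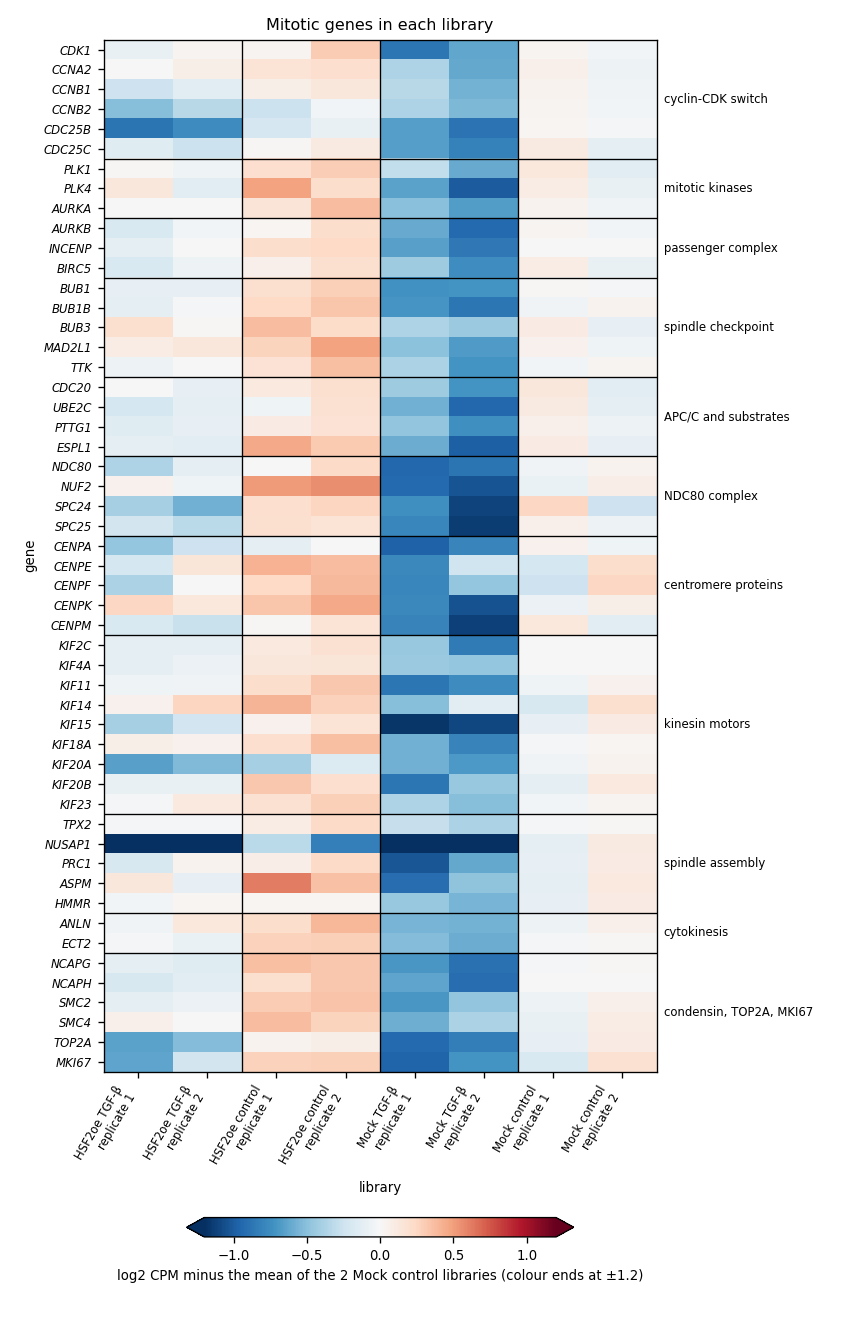
Colour shows log2 CPM of each of the 52 genes (rows, grouped by role) in each of the 8 libraries (columns), minus the mean of the 2 Mock control libraries, and it ends at ±1.2. The 2 Mock TGF-β columns are blue in nearly all rows, the HSF2oe TGF-β columns are pale apart from rows such as CDC25B, KIF20A and TOP2A, and the HSF2oe control columns are mostly light red.

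Promoter windows of 250 bases before to 50 bases after the start of the gene were taken from RefSeq (GRCh38.p14) and matched 45 of the 52 genes. They were searched on both strands for the CHR, the cell cycle genes homology region bound by MuvB (TTTGAA or TTCGAA), and for the CCAAT box bound by NF-Y (CCAAT). Below are the windows of KIF15 and NUF2, which had the largest called falls with TGF-β in Mock cells, of CENPK, which had the largest called rise of HSF2oe over Mock with TGF-β, and of CCNB2, whose cyclin B2 is a classic target of this promoter logic. Capitals mark matches to the CHR or the CCAAT box on either strand. KIF15 lies at chr3:44761544-44761843 (+), NUF2 at chr1:163321704-163322003 (+), CENPK at chr5:65563119-65563418 (-) and CCNB2 at chr15:59104896-59105195 (+). The RefSeq starts used here can differ from the outer ends of the genes in the count table, as for NUF2.
KIF15: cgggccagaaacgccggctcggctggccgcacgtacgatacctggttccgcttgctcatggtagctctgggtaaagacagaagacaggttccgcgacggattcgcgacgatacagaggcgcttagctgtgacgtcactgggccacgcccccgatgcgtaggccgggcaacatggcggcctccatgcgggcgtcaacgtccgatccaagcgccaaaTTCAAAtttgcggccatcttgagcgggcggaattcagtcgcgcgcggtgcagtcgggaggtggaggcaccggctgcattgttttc
NUF2: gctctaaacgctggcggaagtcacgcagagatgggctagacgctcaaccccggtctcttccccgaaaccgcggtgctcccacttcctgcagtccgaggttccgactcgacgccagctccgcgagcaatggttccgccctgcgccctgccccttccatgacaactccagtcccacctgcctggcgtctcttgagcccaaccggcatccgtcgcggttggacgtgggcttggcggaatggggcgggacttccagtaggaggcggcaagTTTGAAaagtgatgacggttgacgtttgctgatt
CENPK: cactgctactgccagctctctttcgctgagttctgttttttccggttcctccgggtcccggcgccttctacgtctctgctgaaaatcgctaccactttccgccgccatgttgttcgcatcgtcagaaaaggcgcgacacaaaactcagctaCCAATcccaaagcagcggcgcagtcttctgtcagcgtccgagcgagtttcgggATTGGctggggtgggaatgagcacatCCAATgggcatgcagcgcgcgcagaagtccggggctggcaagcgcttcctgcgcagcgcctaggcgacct
CCNB2: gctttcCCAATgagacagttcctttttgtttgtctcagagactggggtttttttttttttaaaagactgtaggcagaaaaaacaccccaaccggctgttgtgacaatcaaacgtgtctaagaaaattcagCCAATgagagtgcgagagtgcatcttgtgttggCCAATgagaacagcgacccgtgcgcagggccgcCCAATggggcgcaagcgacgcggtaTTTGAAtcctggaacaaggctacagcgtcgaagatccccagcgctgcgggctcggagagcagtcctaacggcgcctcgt
KIF15 has 1 CHR match, which starts at position -35 from the start of the gene and reads in the reverse direction, and no CCAAT box in its window. NUF2 has 1 CHR match at position 17 and no CCAAT box. CENPK has 3 CCAAT boxes and no CHR match, while CCNB2 has 4 CCAAT boxes and a CHR match at position -29.

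A CHR match stood in at least 1 window of 35 of the 45 genes (77.8%), against 15.4% of the 11105 genes tested that have a window. Its centre lay within 60 bases of the start in 31 of the 45 (68.9%), against 5.10% of those genes. The CCAAT box was present in 35 of 45 (77.8%), against 43.1%, and 21 of 45 (46.7%) had at least a pair of them, against 16.3%. A heat shock element core (TTCNNGAA or GAANNTTC) was found in 9 of 45, against 13.8% of the genes tested that have a window, and an E2F site (TTTCCCGC or TTTGGCGC) in 3 of 45 (6.67%), against 4.50%. Matches of different motifs that overlapped each other were all kept, and these are shares of letter matches rather than of bound sites. The 35 genes with a CHR match had a median log2 fold change with TGF-β in Mock cells of -0.73, and the 10 without one -0.64. For HSF2oe over Mock with TGF-β the medians were 0.55 with and 0.50 without a match, and with few genes lacking a match neither pair of medians was tested.

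**Figure D2:**
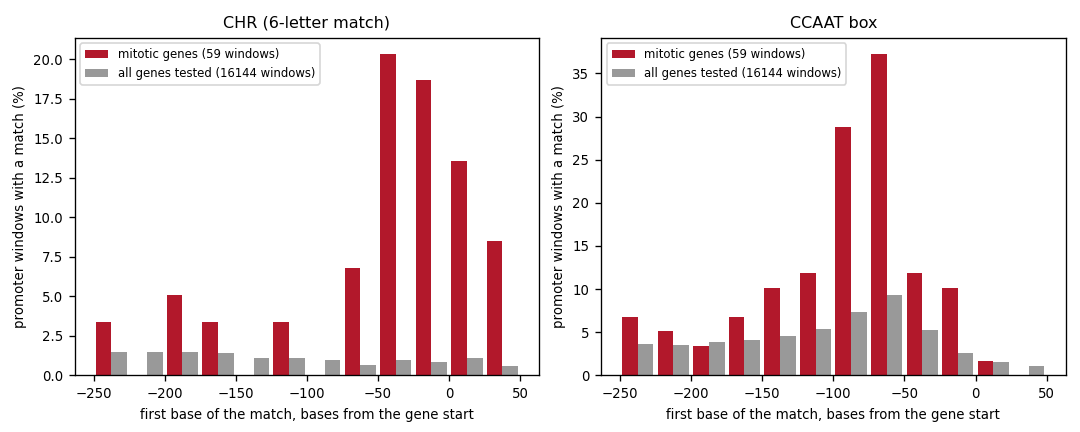
Bars show the percent of promoter windows with a CHR match (left) or a CCAAT box (right) whose first base falls in each 25-base stretch relative to the start of the gene, for 59 windows of the mitotic genes (red) and 16144 windows of all genes tested (grey). CHR matches of the mitotic genes crowd around the start, reaching 20.3% of windows in one stretch, and CCAAT boxes crowd upstream of it, reaching 37.3%.

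TGF-β lowered most of the mitotic genes in Mock cells. Of the 52 genes 49 fell and none rose (edgeR quasi-likelihood test over 16008 genes, Benjamini-Hochberg adjusted p under 0.05), against a background of 6.5% of all genes tested that fell and 7.32% that rose. Their median log2 fold change was -0.69, a fold of 0.622, against -0.0044 over all genes, and the changes ran from -1.95 to -0.32. In 51 of the 52 genes both Mock TGF-β libraries lay below both Mock control libraries, as did 26.9% of all genes. The largest falls among called genes were those of the spindle motor KIF15 (-1.13 ± 0.12, SE, adjusted p = 3.04e-05), of NUF2 in the outer kinetochore (-0.99 ± 0.11, adjusted p = 4.71e-05) and of the inner kinetochore gene CENPM (-0.96 ± 0.14, adjusted p = 0.000334). The 3 genes that did not pass the test were CENPE (-0.49, adjusted p = 0.0834), KIF14 (-0.32, adjusted p = 0.206) and NUSAP1 (-1.95, adjusted p = 0.0598). With 1 library left out the number that fell was 37 to 49, lowest without Mock TGF-β replicate 2.

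With HSF2 overexpressed, the same TGF-β treatment was followed by smaller changes. The direct comparison of both TGF-β effects, given below, called none of the 52 genes and 0.0% of all genes tested in edgeR. In HSF2oe cells 13 of the 52 genes fell and none rose with TGF-β, against a background of 3.82% of all genes that fell and 4.45% that rose. The median log2 fold change was -0.30, a fold of 0.813, against -0.0092 over all genes. All 52 changes were negative, and in 50 genes both HSF2oe TGF-β libraries lay below both HSF2oe control libraries, as did 25.7% of all genes. The genes that fell were CDC25B, BUB1, BUB1B, ESPL1, NUF2, SPC24, KIF15, ECT2, NCAPG, NCAPH, SMC2, TOP2A and MKI67. The largest falls were those of the outer kinetochore gene SPC24 (-0.71 ± 0.17, adjusted p = 0.0166), of MKI67, the proliferation marker Ki-67 that coats mitotic chromosomes (-0.70 ± 0.15, adjusted p = 0.00972), and of CDC25B (-0.67 ± 0.11, adjusted p = 0.00134). The count was lower without any 1 of the 4 HSF2oe libraries, as was the number of falls over all genes tested. With 1 library left out the median log2 fold change of the 52 genes was -0.34 to -0.25. CDC25B and TOP2A, which untangles sister chromatids, kept their call in each of the settings tried. SPC24 lost its call without HSF2oe control replicate 1 (adjusted p = 0.0722), HSF2oe control replicate 2 (0.0861) or HSF2oe TGF-β replicate 2 (0.115), and MKI67 without HSF2oe control replicate 1 (0.0523) or HSF2oe TGF-β replicate 1 (0.093).

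Between TGF-β-treated cells, HSF2oe cells had more RNA of most of these genes than Mock cells. In that comparison 42 of the 52 genes rose and none fell, against a background of 9.6% of all genes that rose and 11.9% that fell. The median log2 fold change was 0.53, a fold of 1.44, against -0.0032 over all genes, and 50 changes were positive (49.7% of all genes). In 48 genes both HSF2oe TGF-β libraries lay above both Mock TGF-β libraries, as did 29.7% of all genes, while 30.2% of all genes lay the other way. The largest rises were those of CENPK (1.10 ± 0.17, adjusted p = 0.000778), NUF2 (0.98 ± 0.11, adjusted p = 9.13e-05) and the centriole duplication kinase PLK4 (0.83 ± 0.16, adjusted p = 0.00333). The 10 genes that did not pass were CCNB1, CCNB2, CDC25B, SPC24, CENPE, CENPF, KIF20A, NUSAP1, TOP2A and MKI67. CDC25B, CCNB2 and KIF20A lay near 0 (-0.044, 0.035 and 0.045), and CDC25B took a positive sign of 0.15 with library totals alone. The number that rose was 27 without Mock TGF-β replicate 2, and 35 to 46 when any other single library was left out. PLK4 lost its call without Mock TGF-β replicate 2 (adjusted p = 0.0519).

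Without TGF-β the same comparison gave smaller differences. In HSF2oe control against Mock control cells 4 of the 52 genes rose and none fell, against a background of 4.88% of all genes that rose and 7.22% that fell. The number that rose lies near that background. An unadjusted p under 0.05 in edgeR was held by 24 of the 52 genes and by 4373 of the 16008 genes tested. The median log2 fold change was 0.23, a fold of 1.17, with 47 positive and 5 negative changes (49.7% of all genes were positive), and the median over all genes was -0.0023. In 34 genes both HSF2oe control libraries lay above both Mock control libraries, as did 28.5% of all genes. The 4 genes that rose were NUF2 (0.53 ± 0.10, adjusted p = 0.00488), the spindle pole protein ASPM (0.48 ± 0.14, adjusted p = 0.0427), the checkpoint protein MAD2L1 (0.38 ± 0.11, adjusted p = 0.0411) and NCAPG (0.34 ± 0.10, adjusted p = 0.0343). Only NUF2 kept its call under each setting tried. The count was 1 without Mock control replicate 1, without Mock control replicate 2 or without HSF2oe control replicate 1, and 2 without HSF2oe control replicate 2. For ASPM the adjusted p was 0.217 without Mock control replicate 1, for MAD2L1 it was 0.252 without Mock control replicate 2, and for NCAPG 0.202 without HSF2oe control replicate 1.

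**Figure D3:**
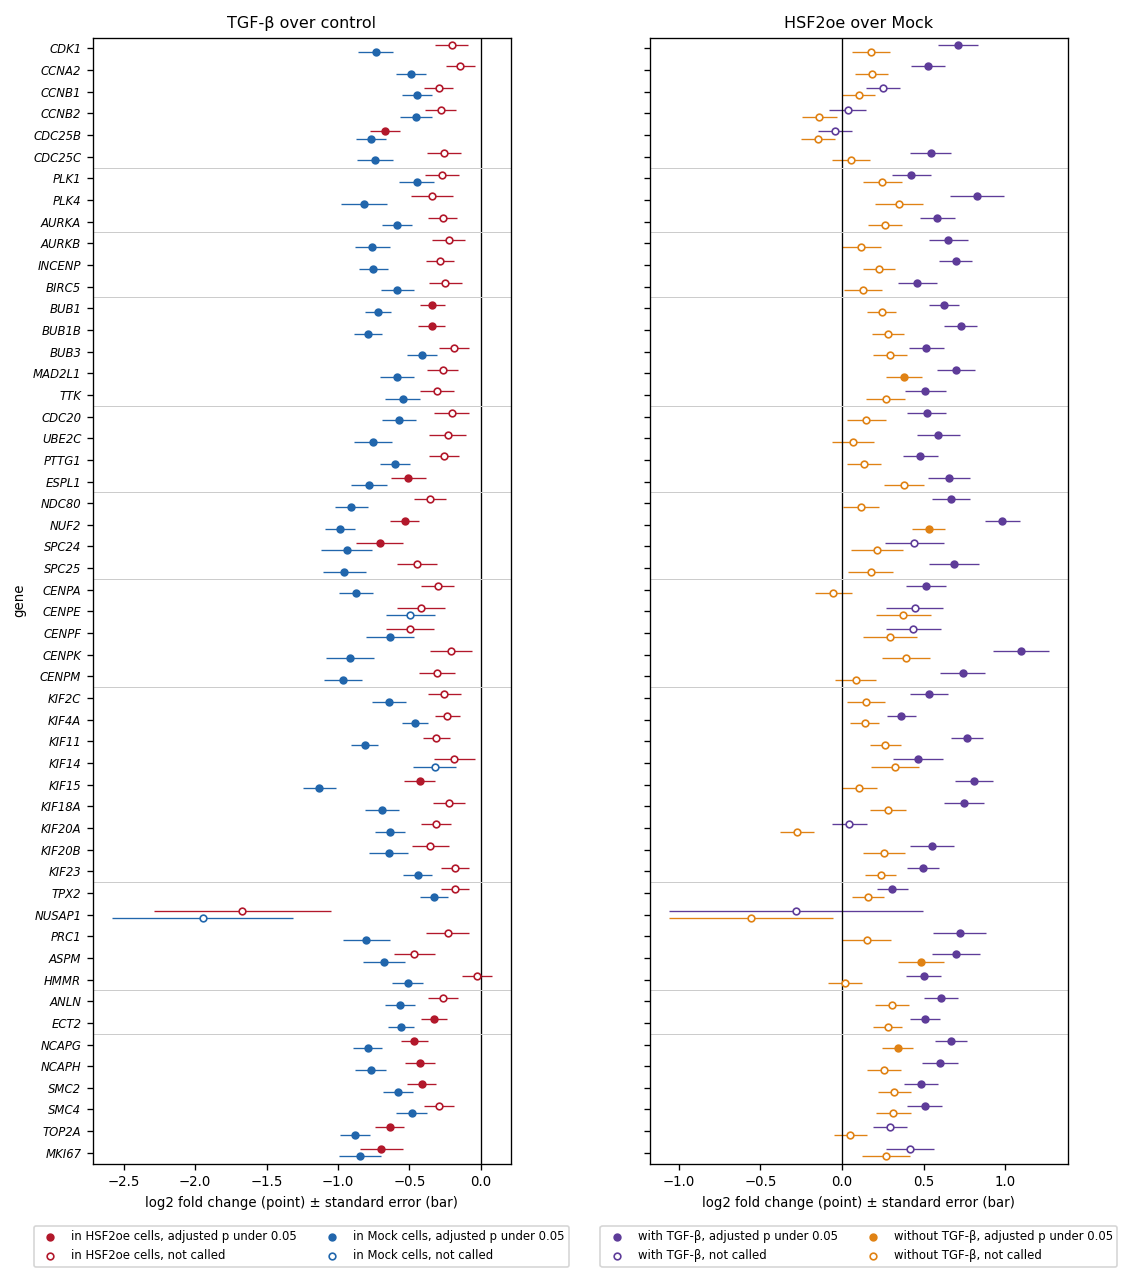
Points show the log2 fold change of each gene and bars its standard error (2 libraries per group), for TGF-β over control in HSF2oe and Mock cells (left) and for HSF2oe over Mock in each medium (right); filled points passed an adjusted p of 0.05. The Mock points on the left lie farther from 0 than the HSF2oe points in all 52 rows, and the TGF-β points on the right lie farther to the right than the control points in the same rows.

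The scaling bears on these counts. With library totals alone in place of TMM, the median over all genes tested moved to -0.27 for TGF-β in Mock cells, -0.17 for TGF-β in HSF2oe cells, 0.19 for HSF2oe over Mock with TGF-β and 0.09 without it. The mitotic genes then had a median of -0.95 for TGF-β in Mock cells, -0.46 for TGF-β in HSF2oe cells, 0.72 for HSF2oe over Mock with TGF-β and 0.32 without it, all farther from 0 than these shifts. Under that scaling 52 fell with TGF-β in Mock cells, 41 fell in HSF2oe cells, 48 rose in HSF2oe over Mock with TGF-β and 16 without it, with none called in the other direction. Over all genes, TGF-β in Mock cells gave 608 rises and 3885 falls under library totals, against 1172 and 1040 with TMM. In HSF2oe cells it gave 452 rises and 1593 falls, against 712 and 611. HSF2oe over Mock gave 3526 rises and 1073 falls with TGF-β, against 1537 and 1912, and 1432 and 807 without it, against 781 and 1156.

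The comparison of both TGF-β effects, that in HSF2oe cells minus that in Mock cells, called none of the 52 genes. The smallest adjusted p was 0.326 (KIF15), and 25 genes had an unadjusted p under 0.05. Over all genes tested edgeR called 0.0%, with 977 at an unadjusted p under 0.05, while DESeq2 called 12 rises and 11 falls, none of them among the 52, of which 21 had an unadjusted p under 0.05. The differences were positive for all 52 genes (50% of all genes), with a median of 0.32 on the log2 scale against 0.00022 over all genes. With 1 library left out 48 to 52 were positive. The largest were those of CENPK (0.71 ± 0.23), KIF15 (0.70 ± 0.16) and CENPM (0.66 ± 0.19), and the smallest those of CENPE (0.07 ± 0.24) and CDC25B (0.10 ± 0.15). KIF15 passed without a filter on low counts (adjusted p = 0.0317).

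HSF2oe TGF-β and Mock control cells were also compared, in a contrast added after the data were seen. None of the 52 genes rose and 7 fell, against a background of 11.7% of all genes that fell and 10.1% that rose. The number that fell lies near that background. The median log2 fold change was -0.09, against -0.00039 over all genes. The 7 were CDC25B (-0.81 ± 0.11, adjusted p = 0.000146), KIF20A (-0.59 ± 0.11), TOP2A (-0.59 ± 0.10), SPC24 (-0.49 ± 0.17), CCNB2 (-0.42 ± 0.11), CENPA (-0.36 ± 0.11) and NUSAP1 (-2.23 ± 0.60). CDC25B, KIF20A and TOP2A kept their call in each setting tried. The count was 4 without either Mock control library and 3 without HSF2oe TGF-β replicate 1. CENPA and CCNB2 lost their call in all 3 of those settings (adjusted p from 0.0565 to 0.306). NUSAP1 did not pass without any 1 of the same 3 libraries or HSF2oe TGF-β replicate 2 (0.0581 to 0.117), and SPC24, at an adjusted p of 0.0497, was lost in several of the settings tried (0.0504 to 0.424).

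Among the genes of the cyclin B and CDK1 switch, CDK1, the mitotic kinase itself, stood at 41.2 and 44.8 CPM in HSF2oe TGF-β, 44.8 and 54.2 in HSF2oe control, 24.0 and 28.4 in Mock TGF-β and 44.7 and 42.8 in Mock control. Both Mock TGF-β libraries were the lowest, with no overlap with any other group, and the HSF2oe TGF-β libraries overlapped Mock control. CDK1 fell with TGF-β in Mock cells (-0.73 ± 0.12, adjusted p = 0.00112), had a change of -0.20 ± 0.12 in HSF2oe cells (adjusted p = 0.371), and was higher in HSF2oe than in Mock cells under TGF-β (0.71 ± 0.12, adjusted p = 0.00148). CDC25B followed another order, with 180 and 197 CPM in HSF2oe TGF-β, 287 and 311 in HSF2oe control, 210 and 178 in Mock TGF-β and 337 and 324 in Mock control. It was low in both TGF-β groups, which overlapped each other, and fell with TGF-β in HSF2oe cells (-0.67 ± 0.11) and in Mock cells (-0.77 ± 0.11). The related phosphatase CDC25C fell in Mock cells (-0.74 ± 0.12) and was higher in HSF2oe than in Mock cells with TGF-β (0.54 ± 0.13), a call lost without Mock TGF-β replicate 2 (adjusted p = 0.0883) or HSF2oe TGF-β replicate 1 (0.0594). The cyclins CCNA2, CCNB1 and CCNB2 fell in Mock cells by 0.44 to 0.49 on the log2 scale. CCNB1 and CCNB2 had no call in HSF2oe over Mock in either medium, and all 3 cyclins lost their call in Mock cells without Mock control replicate 1 (adjusted p from 0.066 to 0.0897) or without Mock TGF-β replicate 2 (0.107 to 0.152).

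PLK1, the kinase that drives spindle assembly and mitotic exit, stood at 157 and 150 CPM in HSF2oe TGF-β, 179 and 191 in HSF2oe control, 127 and 102 in Mock TGF-β and 169 and 143 in Mock control. Mock TGF-β was again the lowest group, and HSF2oe TGF-β lay within the range of Mock control. Its fall in Mock cells (-0.45 ± 0.12, adjusted p = 0.0232) was not called without Mock control replicate 1 (adjusted p = 0.21) or Mock TGF-β replicate 2 (0.244), and its rise in HSF2oe over Mock with TGF-β (0.43 ± 0.12, adjusted p = 0.0229) was not called without Mock TGF-β replicate 2 (0.234) or HSF2oe TGF-β replicate 1 (0.0985). PLK4 stood at 18 and 15 CPM in HSF2oe TGF-β, 22.9 and 19 in HSF2oe control, 10.5 and 8.22 in Mock TGF-β and 17.4 and 15.5 in Mock control. Both Mock TGF-β libraries lay below all others. Its fall in Mock cells (-0.82 ± 0.16, adjusted p = 0.00397) was lost without Mock TGF-β replicate 2 (adjusted p = 0.0665). AURKA, which matures the spindle poles, fell in Mock cells (-0.59 ± 0.11) and was higher in HSF2oe than in Mock cells with TGF-β (0.58 ± 0.11).

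The chromosomal passenger complex corrects faulty attachments of chromosomes to the spindle. Its kinase AURKB stood at 65.1 and 72.4 CPM in HSF2oe TGF-β, 75.1 and 85.6 in HSF2oe control, 48.8 and 38.9 in Mock TGF-β and 75.7 and 72.2 in Mock control. Mock TGF-β lay apart and below, and HSF2oe TGF-β overlapped Mock control. AURKB fell with TGF-β in Mock cells (-0.76 ± 0.12, adjusted p = 0.000852), changed by -0.23 ± 0.12 in HSF2oe cells (adjusted p = 0.315) and was higher in HSF2oe than in Mock cells with TGF-β (0.65 ± 0.12, adjusted p = 0.00233). Its scaffold INCENP and the adaptor BIRC5 (survivin) also fell in Mock cells (-0.75 ± 0.10 and -0.58 ± 0.12) and were higher in HSF2oe than in Mock cells with TGF-β (0.70 ± 0.10 and 0.46 ± 0.12). None of the 3 was called with TGF-β in HSF2oe cells, where their changes ran from -0.28 to -0.23. The BIRC5 calls were lost in Mock cells without Mock control replicate 1 (adjusted p = 0.0527) or Mock TGF-β replicate 2 (0.0796), and in HSF2oe over Mock with TGF-β without Mock TGF-β replicate 2 (0.175) or HSF2oe TGF-β replicate 2 (0.07).

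Of the spindle checkpoint, BUB1, the kinase that marks unattached kinetochores, stood at 85.3 and 84.9 CPM in HSF2oe TGF-β, 104 and 111 in HSF2oe control, 55.0 and 55.4 in Mock TGF-β and 91.7 and 90.3 in Mock control. The 4 groups did not overlap, with HSF2oe control highest and Mock TGF-β lowest. BUB1 fell in both cell populations with TGF-β, by -0.34 ± 0.09 in HSF2oe cells (adjusted p = 0.0322) and by -0.72 ± 0.09 in Mock cells (adjusted p = 0.000157), and was higher in HSF2oe than in Mock cells with TGF-β (0.63 ± 0.09, adjusted p = 0.000566). The fall in HSF2oe cells was not called without any 1 of the 4 HSF2oe libraries or without either Mock control library (adjusted p from 0.0516 to 0.201). MAD2L1, which blocks the APC/C activator CDC20, stood at 28.9 and 29.9 CPM in HSF2oe TGF-β, 32.8 and 37.9 in HSF2oe control, 19.3 and 17 in Mock TGF-β and 28.2 and 26.2 in Mock control. HSF2oe TGF-β lay just above Mock control and below HSF2oe control. Its fall in Mock cells (-0.59 ± 0.12) was lost without Mock TGF-β replicate 2 (adjusted p = 0.064). All 5 checkpoint genes (BUB1, BUB1B, BUB3, MAD2L1 and TTK) fell in Mock cells, with log2 fold changes of -0.79 to -0.41, and all 5 were higher in HSF2oe than in Mock cells with TGF-β, at 0.51 to 0.73. BUB1B, the checkpoint protein BUBR1, also fell in HSF2oe cells (-0.34 ± 0.10, adjusted p = 0.0445), a call lost when any 1 of the 8 libraries was left out (adjusted p from 0.0503 to 0.255). TTK, the kinase MPS1 that starts checkpoint signalling, lost its call in Mock cells without Mock control replicate 2 (adjusted p = 0.054) or Mock TGF-β replicate 2 (0.135), and both TTK (0.145) and BUB3 (0.0503) lost that of HSF2oe over Mock with TGF-β without Mock TGF-β replicate 2. BUB3, a partner of BUB1, had the smallest fall of the 5, and its call in Mock cells was lost without Mock control replicate 1 (adjusted p = 0.189), Mock TGF-β replicate 1 (0.0609) or Mock TGF-β replicate 2 (0.146).

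CDC20, which activates the APC/C for anaphase, stood at 291 and 272 CPM in HSF2oe TGF-β, 315 and 333 in HSF2oe control, 217 and 177 in Mock TGF-β and 321 and 264 in Mock control. The 2 Mock control libraries spanned the HSF2oe TGF-β values, and both Mock TGF-β libraries were lower. It fell in Mock cells (-0.57 ± 0.12, adjusted p = 0.00628), without Mock control replicate 1 at an adjusted p of 0.0815 and without Mock TGF-β replicate 2 at 0.0981. CDC20 was higher in HSF2oe than in Mock cells with TGF-β (0.52 ± 0.12, adjusted p = 0.00915), not called without Mock TGF-β replicate 2 (0.122) or HSF2oe TGF-β replicate 1 (0.0524). UBE2C, the ubiquitin-conjugating enzyme of the APC/C, PTTG1 (securin) and ESPL1 (separase) fell in Mock cells as well, UBE2C by 0.75, PTTG1 by 0.60 and ESPL1 by 0.78 on the log2 scale. All 3 were also higher in HSF2oe than in Mock cells with TGF-β, at 0.59, 0.48 and 0.65, but without Mock TGF-β replicate 2 UBE2C (adjusted p = 0.0968) and PTTG1 (0.1) did not pass. ESPL1 was the one of these 4 genes that fell with TGF-β in HSF2oe cells (-0.51 ± 0.12, adjusted p = 0.0199), a call lost without HSF2oe control replicate 1 (adjusted p = 0.162), HSF2oe TGF-β replicate 1 (0.0853) or HSF2oe TGF-β replicate 2 (0.104).

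The NDC80 complex is the outer kinetochore rod that holds the microtubule, and the median change of its 4 genes with TGF-β in Mock cells (-0.95) was the farthest from 0 of the 11 roles into which the 52 genes were sorted. NDC80 stood at 47.3 and 56.4 CPM in HSF2oe TGF-β, 60.8 and 71.5 in HSF2oe control, 31.8 and 33.3 in Mock TGF-β and 59.3 and 62.8 in Mock control. Mock TGF-β was lowest, and HSF2oe TGF-β lay between it and both control groups. NDC80 fell in Mock cells (-0.91 ± 0.12, adjusted p = 0.000176) and had -0.35 ± 0.11 in HSF2oe cells (adjusted p = 0.0756). NUF2, its partner in the rod, stood at 39.1 and 36.6 CPM in HSF2oe TGF-β, 53.9 and 55.7 in HSF2oe control, 19.9 and 18.5 in Mock TGF-β and 35.8 and 39.9 in Mock control. The HSF2oe control values exceeded all others, and HSF2oe TGF-β overlapped Mock control. NUF2 and NCAPG were the only genes of the 52 called in all 4 of the planned pairwise comparisons, and the fall of NUF2 in HSF2oe cells (-0.53 ± 0.10, adjusted p = 0.0042) was lost without HSF2oe TGF-β replicate 2 (adjusted p = 0.054). The remaining subunit SPC25 fell in Mock cells (-0.96 ± 0.14) and was higher in HSF2oe than in Mock cells with TGF-β (0.69 ± 0.14), the second not without Mock TGF-β replicate 2 (adjusted p = 0.0958). SPC24 stood at 13.9 and 12.2 CPM in HSF2oe TGF-β, 21 and 21.7 in HSF2oe control, 10.9 and 8.41 in Mock TGF-β and 21.7 and 15.3 in Mock control. The 2 Mock control libraries of SPC24 differed more than any other pair of that gene, and HSF2oe over Mock without TGF-β, at 0.21, took the value of -0.019 without Mock control replicate 2.

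At the centromere, CENPF, a large protein of the outer kinetochore that rises in G2, stood at 237 and 308 CPM in HSF2oe TGF-β, 364 and 405 in HSF2oe control, 179 and 223 in Mock TGF-β and 259 and 367 in Mock control. Replicate 2 was higher in all 4 groups, and the Mock control libraries overlapped both HSF2oe groups. CENPF fell in Mock cells (-0.64 ± 0.17, adjusted p = 0.0211), not without Mock control replicate 2 (adjusted p = 0.216) or Mock TGF-β replicate 1 (0.161). CENPK stood at 9.74 and 8.95 CPM in HSF2oe TGF-β, 10.3 and 11.3 in HSF2oe control, 4.82 and 3.99 in Mock TGF-β and 7.83 and 8.62 in Mock control. Its HSF2oe TGF-β values lay above both Mock control values. CENPM stood at 26.4 and 24.9 CPM in HSF2oe TGF-β, 30.1 and 33.4 in HSF2oe control, 17.1 and 13.7 in Mock TGF-β and 32.6 and 27.3 in Mock control, so that HSF2oe TGF-β lay between the Mock groups. CENPA, the histone H3 variant that marks the centromere, fell in Mock cells (-0.87 ± 0.12) and was higher in HSF2oe than in Mock cells with TGF-β (0.52 ± 0.12), a call lost without Mock TGF-β replicate 1 (adjusted p = 0.0636) or HSF2oe TGF-β replicate 2 (0.0637). CENPE, a kinetochore kinesin with a long transcript, passed in none of the 4 comparisons.

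Of the 9 kinesin genes 8 fell in Mock cells, 1 fell in HSF2oe cells, and 8 were higher in HSF2oe than in Mock cells with TGF-β. KIF11 (Eg5), which slides spindle poles apart, stood at 76.9 and 77.7 CPM in HSF2oe TGF-β, 92.3 and 99.6 in HSF2oe control, 43.6 and 47.2 in Mock TGF-β and 77.0 and 82.7 in Mock control. KIF15, which can act beside KIF11 on the spindle, stood at 28.6 and 32.1 CPM in HSF2oe TGF-β, 39.2 and 42.4 in HSF2oe control, 16.8 and 17.7 in Mock TGF-β and 35.4 and 40.3 in Mock control. In both motors Mock TGF-β was the lowest group by a wide margin over the replicate spread. The HSF2oe TGF-β values overlapped Mock control for KIF11, and for KIF15 they lay between the Mock groups. KIF11 fell in Mock cells (-0.81 ± 0.10, adjusted p = 0.000103) and had -0.31 ± 0.09 in HSF2oe cells (adjusted p = 0.0623), while KIF15 fell in HSF2oe cells too (-0.43 ± 0.11, adjusted p = 0.0264), a call lost without any 1 of the 4 HSF2oe libraries (adjusted p from 0.0537 to 0.218). KIF20A, a motor of cytokinesis, fell in Mock cells (-0.63 ± 0.11), with 0.05 ± 0.11 for HSF2oe over Mock with TGF-β and -0.28 ± 0.11 without it (adjusted p = 0.11). KIF18A, which damps chromosome movements, fell in Mock cells (-0.69 ± 0.12) and was higher in HSF2oe than in Mock cells with TGF-β (0.75 ± 0.12), and both calls held in each setting tried. The microtubule depolymerase KIF2C (-0.64 ± 0.12), the chromokinesin KIF4A (-0.46 ± 0.09), KIF20B (-0.64 ± 0.14) and the central spindle motor KIF23 (-0.44 ± 0.10) fell in Mock cells too. KIF20B lost that call without Mock control replicate 2 (adjusted p = 0.0543) or Mock TGF-β replicate 1 (0.0565), and KIF23 without Mock control replicate 2 (0.0562) or Mock TGF-β replicate 2 (0.107). These 4 motors were higher in HSF2oe than in Mock cells with TGF-β by 0.36 to 0.55, but KIF2C (adjusted p = 0.0936), KIF4A (0.086) and KIF23 (0.0525) were not called without Mock TGF-β replicate 2, KIF4A (0.0581) not without HSF2oe TGF-β replicate 2, and KIF20B (0.0972) not without Mock TGF-β replicate 1. KIF14, also of cytokinesis, was called only in HSF2oe over Mock with TGF-β (0.47 ± 0.15, adjusted p = 0.0452), and lost that call without Mock TGF-β replicate 1 (adjusted p = 0.266), either HSF2oe TGF-β library or either HSF2oe control library (0.0504 to 0.19).

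TPX2 was among the most abundant of these genes and among the least changed. It stood at 476 and 478 CPM in HSF2oe TGF-β, 514 and 565 in HSF2oe control, 398 and 372 in Mock TGF-β and 478 and 489 in Mock control. Mock TGF-β was the lowest group by a small margin. TPX2 fell in Mock cells (-0.33 ± 0.10, adjusted p = 0.0382), a call lost without any 1 of the 4 Mock libraries (adjusted p from 0.0874 to 0.25), and was higher in HSF2oe than in Mock cells with TGF-β (0.31 ± 0.10, adjusted p = 0.0366), a call lost without any 1 of the 4 TGF-β libraries (0.0773 to 0.235). ASPM stood at 82.8 and 70.8 CPM in HSF2oe TGF-β, 115 and 96.7 in HSF2oe control, 40.2 and 54.2 in Mock TGF-β and 69.8 and 81.8 in Mock control. Both HSF2oe control libraries were the highest, and HSF2oe TGF-β overlapped Mock control. ASPM fell in Mock cells (-0.68 ± 0.15), not without Mock control replicate 2 (adjusted p = 0.0561) or Mock TGF-β replicate 1 (0.0688), and was higher in HSF2oe than in Mock cells with TGF-β (0.70 ± 0.15, adjusted p = 0.0048). PRC1, which bundles midzone microtubules, fell in Mock cells (-0.80 ± 0.16) and was higher in HSF2oe than in Mock cells with TGF-β (0.72 ± 0.16), the second a call lost without Mock TGF-β replicate 1 (adjusted p = 0.0614). Also lower in Mock TGF-β was HMMR, a spindle protein and hyaluronan receptor (-0.51 ± 0.11), which lost its call without Mock control replicate 2 (adjusted p = 0.0668) or Mock TGF-β replicate 2 (0.0681). HMMR had the change nearest to 0 with TGF-β in HSF2oe cells (-0.027 ± 0.10). NUSAP1 rested on 3 to 29 counts per library, and its values of 0.128 to 0.823 CPM lie near the limit of 3 counts.

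Of the cytokinesis genes ANLN, which anchors the contractile ring, stood at 548 and 613 CPM in HSF2oe TGF-β, 652 and 740 in HSF2oe control, 383 and 380 in Mock TGF-β and 539 and 587 in Mock control. The HSF2oe TGF-β libraries overlapped Mock control, and both Mock TGF-β libraries were lower by more than the replicate spread. ANLN fell in Mock cells (-0.56 ± 0.11, adjusted p = 0.00273) and was higher in HSF2oe than in Mock cells with TGF-β (0.61 ± 0.11, adjusted p = 0.00167). ECT2, which activates RHOA for the ring, fell in Mock cells (-0.56 ± 0.09) and in HSF2oe cells (-0.33 ± 0.09, adjusted p = 0.0379), the second a call lost when any 1 of the 8 libraries was left out (adjusted p from 0.0515 to 0.236).

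Condensin folds chromosomes for mitosis, and its 4 genes were sorted with TOP2A and MKI67 into a role of 6 genes. All 6 fell in Mock cells, and 5 fell in HSF2oe cells, namely TOP2A, MKI67 and 3 condensin genes. The calls of MKI67 and of the 3 condensin genes in HSF2oe cells rested on single libraries, and that of TOP2A did not. NCAPG stood at 60.9 and 59.3 CPM in HSF2oe TGF-β, 83.8 and 81.9 in HSF2oe control, 40.4 and 35.3 in Mock TGF-β and 64.8 and 66.1 in Mock control. The 4 groups did not overlap. NCAPG fell with TGF-β in HSF2oe cells (-0.46 ± 0.10, adjusted p = 0.00811) and in Mock cells (-0.79 ± 0.10, adjusted p = 0.00014), and was higher in HSF2oe than in Mock cells with TGF-β (0.67 ± 0.10, adjusted p = 0.000614). Its fall in HSF2oe cells was not called without HSF2oe control replicate 1 (adjusted p = 0.0693) or HSF2oe TGF-β replicate 2 (0.0738). MKI67 stood at 308 and 410 CPM in HSF2oe TGF-β, 580 and 582 in HSF2oe control, 247 and 291 in Mock TGF-β and 422 and 543 in Mock control. Both TGF-β groups were low, HSF2oe TGF-β did not reach Mock control, and HSF2oe control was the highest. MKI67 and TOP2A each fell with TGF-β in Mock cells too (-0.84 ± 0.15 and -0.88 ± 0.10), and neither passed for HSF2oe over Mock with TGF-β (0.42, adjusted p = 0.062, and 0.30, adjusted p = 0.0562). The condensin subunits NCAPH and SMC2 fell in HSF2oe cells (-0.43 ± 0.11 and -0.41 ± 0.10) and in Mock cells (-0.77 ± 0.11 and -0.58 ± 0.10), the first set of calls being lost without any 1 of the 4 HSF2oe libraries (adjusted p from 0.0593 to 0.167). SMC4, the partner of SMC2, had -0.29 ± 0.11 in HSF2oe cells and fell in Mock cells (-0.48 ± 0.11), not without Mock control replicate 2 (adjusted p = 0.0746) or Mock TGF-β replicate 1 (0.0865). With TGF-β, NCAPH (0.60), SMC2 (0.49) and SMC4 (0.51) were higher in HSF2oe than in Mock cells, SMC2 (adjusted p = 0.0544) and SMC4 (0.0516) not without Mock TGF-β replicate 1.

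**Figure D4:**
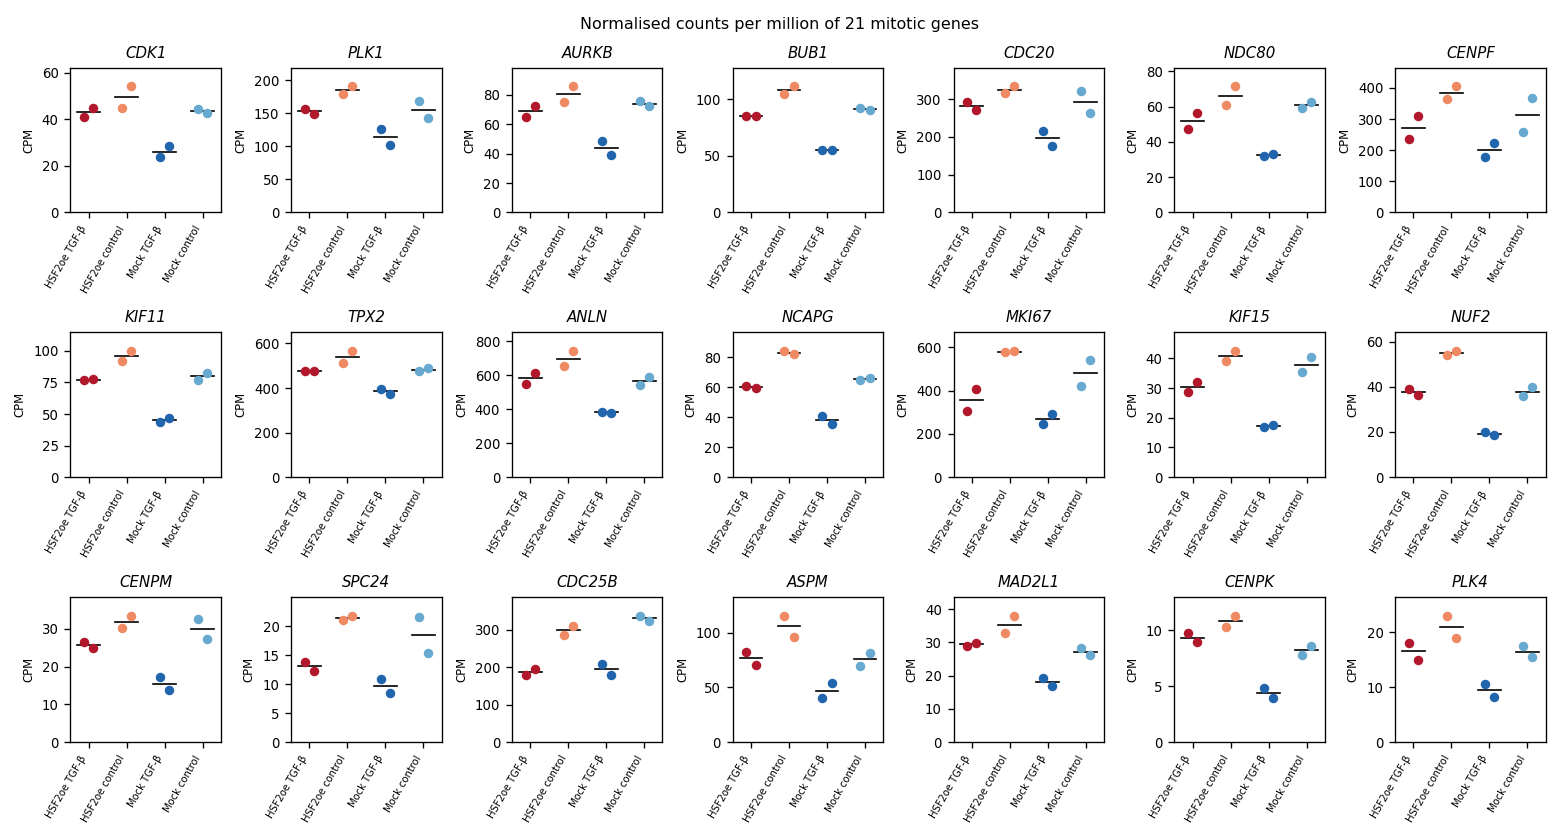
Points show CPM of 21 genes in each of the 2 libraries of a group and lines the mean of the group, on axes that start at 0. Mock TGF-β is the lowest group in 20 of the panels by its mean, CDC25B being the other, and HSF2oe TGF-β lies near Mock control in most panels but well below it in SPC24, CDC25B and MKI67.

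Other genes of the same pathways, from lists drawn up beside the 52, are given by their counts. Over all genes tested 6.5% fell with TGF-β in Mock cells, 3.82% fell in HSF2oe cells and 9.6% rose in HSF2oe over Mock with TGF-β. Of 34 other centromere and kinetochore genes 21 fell with TGF-β in Mock cells (12 to 21 with 1 library left out, 12 without Mock TGF-β replicate 2 and 13 without Mock control replicate 1), ZWINT, MIS18A and SKA3 with the smallest p (-0.94, -1.02 and -0.99), and 21 rose in HSF2oe over Mock with TGF-β (14 to 21). In HSF2oe cells 3 of these fell (0 to 4) and 1 rose with TGF-β, where 4.45% of all genes rose, the rise being that of SPDL1 (0.45), a call lost with library totals alone (adjusted p = 0.0914) and without HSF2oe control replicate 1 (0.0687), HSF2oe control replicate 2 (0.088) or HSF2oe TGF-β replicate 2 (0.157). Of 27 other spindle, centrosome and kinesin genes 21 fell in Mock cells (15 to 21), with the minus-end motor KIFC1 first (-0.90), 6 fell in HSF2oe cells (0 to 7, and 0 without HSF2oe TGF-β replicate 1), and 17 rose in HSF2oe over Mock with TGF-β (12 to 17). CKAP2L, a spindle protein, had the smallest p of those rises (1.09) and also rose without TGF-β (0.60). Of 17 other mitotic entry and exit regulators 10 fell in Mock cells (6 to 10), among them PKMYT1, a kinase that holds CDK1 inactive (-1.08), and 11 rose in HSF2oe over Mock with TGF-β (6 to 11), both counts being 6 without Mock TGF-β replicate 2. Of 17 other condensin and cohesin genes 7 fell in Mock cells (6 to 7) and 6 rose in HSF2oe over Mock with TGF-β (4 to 7), led in both by CDCA5 (sororin, -0.97 and 1.17), a protector of sister chromatid cohesion. In HSF2oe cells 3 of the entry and exit regulators fell (0 to 3, and 0 without HSF2oe TGF-β replicate 2), and 2 of the condensin and cohesin genes did, with 0 when any 1 library was left out. Of 6 other passenger and checkpoint genes 4 fell in Mock cells, and 2 did without Mock control replicate 1 or Mock TGF-β replicate 2. None of the 6 fell in HSF2oe cells, and 5 rose in HSF2oe over Mock with TGF-β, a count of 2 without Mock TGF-β replicate 2 and of 3 without either HSF2oe TGF-β library. Of 10 other cytokinesis genes 6 fell in Mock cells, and 3 did without Mock TGF-β replicate 1. In HSF2oe cells 2 of the 10 fell (0 to 1), and 3 rose in HSF2oe over Mock with TGF-β (2 to 4), where the median of the list was 0.21.

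Library totals alone raised several of these counts by over 1.5 times, under a scaling in which 3885 of all genes tested fell with TGF-β in Mock cells, 1593 fell in HSF2oe cells and 3526 rose in HSF2oe over Mock with TGF-β. In Mock cells 13 condensin and cohesin genes and all 17 mitotic entry and exit regulators then fell. In HSF2oe cells 8 centromere and kinetochore genes fell and 18 spindle, centrosome and kinesin genes did, as did 3 passenger and checkpoint genes, 3 cytokinesis genes, 8 condensin and cohesin genes and 7 entry and exit regulators. For HSF2oe over Mock with TGF-β 13 condensin and cohesin genes and 5 cytokinesis genes rose. Without TGF-β and with TMM, 8 of the 34 centromere and kinetochore genes rose in HSF2oe over Mock, against 4.88% of all genes tested. So did 4 of the 27 spindle, centrosome and kinesin genes, 3 of the 17 entry and exit regulators and 2 of the 17 condensin and cohesin genes. Each of these counts was lower without Mock control replicate 2 or HSF2oe control replicate 1. None of the passenger and checkpoint or cytokinesis genes rose.

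A list of 15 APC/C genes held subunits and UBE2S, a ubiquitin-conjugating enzyme. Of the 15, 0 rose and 0 fell with TGF-β in either cell population, in edgeR with TMM and in DESeq2. Over all genes tested 4.45% rose and 3.82% fell in HSF2oe cells, and 7.32% rose and 6.5% fell in Mock cells, so that a count of 0 among 15 lies near the background. Their median log2 fold change was -0.04 in HSF2oe cells and -0.14 in Mock cells. None of the 15 had an unadjusted p under 0.05 in edgeR in these 2 comparisons, as 3224 of the 16008 genes did in HSF2oe cells and 4090 in Mock cells. With library totals alone 1 of the 15 fell in HSF2oe cells, 7 fell in Mock cells and 4 rose in HSF2oe over Mock with TGF-β. Under that scaling 1593, 3885 and 3526 of the 16008 genes did so, in the same order. With TMM, UBE2S alone rose in HSF2oe over Mock with TGF-β (0.56), a call lost without Mock TGF-β replicate 2 (adjusted p = 0.172) or HSF2oe TGF-β replicate 1 (0.0653). DNA replication genes, which peak earlier, at G1 to S, all fell in Mock cells with TGF-β (24 of 24, with a median of -0.86, and 21 to 24 with 1 library left out). Of the same 24 genes 8 fell in HSF2oe cells (0 to 7, with 0 without HSF2oe TGF-β replicate 2, and 16 with library totals alone) and 22 rose in HSF2oe over Mock with TGF-β (22 to 23, with a median of 0.92). GINS2, MCM2 and MCM3 of the replicative helicase fell by 1.49, 1.27 and 1.10 in Mock cells on the log2 scale. Without TGF-β 5 of the 24 rose in HSF2oe over Mock, against 4.88% of all genes tested, and fewer did without any 1 of the 4 control libraries.

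Of 20 regulators of G2 and M transcription 7 fell and 1 rose with TGF-β in Mock cells, against 6.5% and 7.32% of all genes tested, and 12 fell with library totals alone. The rise was that of CDKN2B, the CDK4 and CDK6 inhibitor p15 and a known TGF-β target, at 111 and 203 CPM in HSF2oe TGF-β, 23.1 and 33.5 in HSF2oe control, 297 and 352 in Mock TGF-β and 40.2 and 52.4 in Mock control. It rose with TGF-β in HSF2oe cells (2.47 ± 0.25, adjusted p = 3.58e-05) and in Mock cells (2.81 ± 0.25, adjusted p = 9.95e-06), and was lower in HSF2oe than in Mock cells with TGF-β (-1.05 ± 0.23, adjusted p = 0.00642). RBL1, the pocket protein p107 of the DREAM complex and itself an E2F target, fell in HSF2oe cells (-0.58 ± 0.10) and in Mock cells (-1.31 ± 0.11) with TGF-β and was higher in HSF2oe than in Mock cells under TGF-β (0.97 ± 0.11). MYBL1 fell in HSF2oe cells (-0.71) and in Mock cells (-1.06). MYBL1 and MYC were higher in HSF2oe than in Mock cells with TGF-β (0.85 and 0.85) and without it (0.50 and 0.54). In HSF2oe over Mock 9 of the 20 rose and 2 fell with TGF-β, against 9.6% and 11.9% of all genes. Without TGF-β 3 rose and none fell, against 4.88% and 7.22%. These counts were lower without some single libraries. FOXM1 and MYBL2 (B-MYB), named after their values were seen, also fell in Mock cells (-0.49 and -0.62) and were higher in HSF2oe than in Mock cells with TGF-β (0.40 and 0.37). FOXM1 and MYBL2 lost the first call without Mock control replicate 1 (adjusted p = 0.096 for FOXM1 and 0.0557 for MYBL2) or Mock TGF-β replicate 2 (0.12 and 0.064), and the second without Mock TGF-β replicate 2 (0.204 and 0.327) or HSF2oe TGF-β replicate 2 (0.121 and 0.134). In HSF2oe cells their changes with TGF-β did not pass (-0.16 and -0.12). The number of these regulators that fell in Mock cells was 3 without Mock control replicate 1 and 2 without Mock TGF-β replicate 2.

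Long and short transcripts of the group differed between replicates. In Mock control cells the log2 difference of replicate 2 over replicate 1 was 0.50 for CENPF (11673 bases of exon), 0.42 for CENPE (9928 bases) and 0.36 for MKI67 (12845 bases), and -0.21 for UBE2C (1286 bases) and -0.28 for CDC20 (2012 bases). Across the 52 genes this difference and the log2 of exonic length had a Pearson r of 0.19 in HSF2oe TGF-β, -0.34 in HSF2oe control, 0.60 in Mock TGF-β and 0.63 in Mock control. Over all genes tested r was 0.04 in HSF2oe TGF-β, -0.03 in HSF2oe control and 0.07 in both Mock groups. The points of a group share its 2 libraries, genes are not independent replicates, and the values are a description. The change of HSF2oe over Mock without TGF-β had a Spearman rho of 0.61 with length across the 52 genes, that with TGF-β -0.01, TGF-β over control 0.20 in Mock cells and -0.24 in HSF2oe cells, and the difference of both TGF-β effects -0.47. In the same order, the Pearson r with log2 length was 0.45, 0.04, 0.17, -0.14 and -0.46. The part of transcript length in these changes was not tested.

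**Figure D5:**
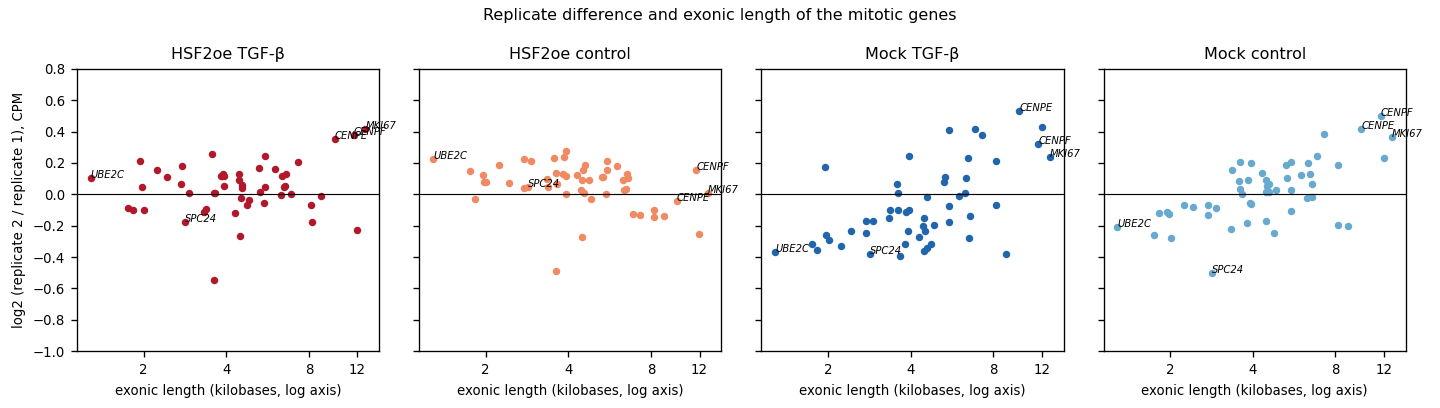
Each point is a mitotic gene, with its exonic length in kilobases (log axis) and the log2 ratio of its CPM in replicate 2 over replicate 1, in a panel for each group. Points rise to the right in both Mock panels, where CENPE, CENPF and MKI67 are high and UBE2C and SPC24 low. They rise less in the HSF2oe TGF-β panel (Pearson r 0.19) and fall to the right in the HSF2oe control panel (-0.34).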

How the data were processed

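Polyadenylated RNA from HS578T cells was sequenced from stranded mRNA libraries, per the labels' protocols, as 2 libraries in each of 4 groups. The authors' deposited counts per gene came from featureCounts 2.0.1, run on read pairs with GENCODE 38 and without a strand setting, per the file headers. The notes of the submitters on processing list STAR 2.7.9a, GRCh38 and edgeR 3.34.1. A deposited table of log2 CPM for 13169 genes served as an alternative.

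All 8 libraries entered one model with a mean for each group. Genes that passed filterByExpr (16008) were scaled by TMM and tested with edgeR 4.0.16 (quasi-likelihood, R 4.3.3), and p-values were adjusted by Benjamini and Hochberg over all of them, with 0.05 as the threshold. The SE of a log2 fold change is its size divided by the square root of F. The script was tested on simulated data. RPKM used the exonic length of the count table. The 52 genes and the pathway lists were chosen with earlier results of these data known. Values in every library are given for an anchor gene of each role, for MKI67, and for the 3 genes with the largest rise and fall among those called in each of the 4 pairwise comparisons; other members may be named with their tests. From the pathway lists up to 3 called genes with the smallest p per list and comparison are named.

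Alternatives were library totals, DESeq2 1.42.0 (its size factors and its own test), other filters on low counts, limma 3.58.1 on the deposited log2 CPM, the 4 libraries compared alone, a replicate block, and leaving out each library. A contrast of HSF2oe TGF-β over Mock control and a list of members sharing over 20% of their exonic bases were chosen after seeing the data. Of 171 listed pathway genes 170 were found in the table. Counts of replicate pairs differed by more than sampling noise, with a chi-square of 12.5 to 26.8 for each degree of freedom. The design text names no pairing by replicate number, and the main model held no replicate block.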

Additional observations from a re-analysis of the deposited data

How the results depend on the processing

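Among the 52 mitotic genes no called change took the opposite sign under any alternative run. Calls held under every alternative for 32 of 49 genes that fell with TGF-β in Mock cells, 2 of 13 in HSF2oe cells, 20 of 42 in HSF2oe over Mock with TGF-β, 1 of 4 without TGF-β, and 3 of 7 in HSF2oe TGF-β over Mock control. Library totals alone gave medians of -0.95 for TGF-β in Mock cells, -0.46 for TGF-β in HSF2oe cells, 0.32 for HSF2oe over Mock without TGF-β, 0.72 with it, 0.42 for the difference of the TGF-β effects and -0.16 for HSF2oe TGF-β over Mock control, with 41 genes falling in HSF2oe cells and 16 rising in HSF2oe over Mock without TGF-β. Over all 16008 genes 1593 fell and 1432 rose in those 2 comparisons. Without a filter on low counts 8 genes rose in HSF2oe over Mock without TGF-β and 1 in the difference of effects, as did 982 and 46 of all 31802 genes. With only the 4 libraries compared 7 rose in the first, as did 992 of all 15559 genes. With a replicate block 31 genes fell with TGF-β in HSF2oe cells, 22 rose and 1 fell in HSF2oe over Mock without TGF-β, and 3 rose in the difference. Over all 16008 genes that block gave, in the same order, 1118 falls, 1588 rises, 2026 falls and 42 rises. The design text names no block for libraries of the same number. Their deviations correlated at 0.0498 to 0.163 between groups, all positive, with 2 numbers in all. Whether the numbers pair the libraries was not settled. DESeq2 called 50 falls with TGF-β in Mock cells, 15 in HSF2oe cells, and 45 rises in HSF2oe over Mock with TGF-β. Over all 16008 genes it called 979 falls, 600 falls and 1376 rises in the same order. With 1 library left out, 3 to 13 genes fell with TGF-β in HSF2oe cells (median -0.34 to -0.25), 1 to 5 rose in HSF2oe over Mock without TGF-β, 27 to 46 rose with it (median 0.50 to 0.62), the median difference of effects was 0.30 to 0.42, and 3 to 7 fell in HSF2oe TGF-β over Mock control. Of changes not called, CDC25B in HSF2oe over Mock with TGF-β took values of 0.15 with library totals, 0.078 without Mock TGF-β replicate 1 and 0.036 without HSF2oe TGF-β replicate 1, with a lowest value of -0.156 without 1 library. In HSF2oe over Mock without TGF-β, leaving out a library gave -0.019 to 0.477 for SPC24 and -0.040 to 0.213 for CENPM, both lowest without Mock control replicate 2. The cause of these shifts was not tested. NUSAP1, at 3 to 29 counts per library, had the lowest counts of the 52.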
